A study of Sus scrofa with 10 samples.

Results

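Melanin-concentrating hormone (MCH) and the orexins are peptides made by separate sets of neurons in the lateral hypothalamus. The genes described here are the 2 peptide precursors, PMCH and HCRT, and the receptors MCH-R1, HCRTR1 and HCRTR2. They were taken by the gene name in the deposited table, which gave 5 of 25009 gene rows. The rule itself uses no measured value, but the genes were proposed with earlier results of these data known.

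RNA was sequenced from hypothalami of 10 pigs that diverged in growth and fatness, 5 in which both traits were high (high pigs here) and 5 in which both were low (low pigs). Animals of both groups came from a backcross of Iberian and Landrace pigs. Age, sex, feeding state and time of day at sampling are not given in the sources used here. The measure is FPKM, fragments scaled for transcript length and library size, of which the file holds a single value for each gene in each group, between 2 bounds.

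MCH promotes feeding and energy storage in rodents, and its neurons send fibres through much of the brain. Orexin neurons sustain wakefulness and drive feeding, and their loss accompanies narcolepsy in humans. Both precursors are cut into their active peptides inside secretory vesicles. The receptors are G protein-coupled and sit mainly on cells other than the peptide neurons, so a precursor and its receptor need not be transcribed in the same cells.

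In all 5 genes the value was higher in high pigs. PMCH was 1.82 times and HCRT 2.33 times its value in low pigs, and the receptors were at 1.43 to 1.63 times theirs. For every one of the 5 genes, however, the deposited intervals of the 2 groups overlapped. With 1 value per group there is no replicate check, the spread between animals was not analysed here and the depth of each library is unknown.

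The precursor PMCH was by far the most abundant of the 5. It stood at 167 FPKM in high pigs, with bounds of 119.6 and 215, and at 91.8 FPKM in low pigs, with bounds of 51.5 to 132. The upper bound of low pigs reached 12.5 FPKM past the lower bound of high pigs, so the intervals overlapped only at their ends. Within the bounds the ratio of high to low pigs could lie anywhere from 0.906 to 4.17, which includes equal levels. On the scale of log2(FPKM + 1) the difference, high minus low, was 0.86.

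HCRT encodes prepro-orexin, from which orexin-A and orexin-B are cut. It was at 4.16 FPKM (bounds 2.03 to 6.29) in high pigs and 1.78 FPKM (0.556 to 3.01) in low pigs. This was the largest ratio of the 5 genes and also one with wide bounds, which allow ratios of 0.674 to 11.3. The log2 difference was 0.89. Both precursors had the higher value in high pigs, yet PMCH exceeded HCRT 40.2-fold in high pigs and 51.5-fold in low pigs, and their intervals were apart in both.

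MCH-R1, named MCHR1 in the reference table, is the receptor through which MCH acts in rodents. Its level was 5.41 FPKM (2.90 to 7.92) in high pigs and 3.32 FPKM (1.26 to 5.38) in low pigs, a log2 difference of 0.57. The bounds allow ratios of 0.539 to 6.31. PMCH was 30.9 times as abundant as MCH-R1 in high pigs and 27.6 times in low pigs, with intervals apart in both.

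HCRTR2, the orexin receptor that binds orexin-A and orexin-B alike, was at 2.78 FPKM (1.48 to 4.08) in high pigs and 1.94 FPKM (0.798 to 3.09) in low pigs. Its log2 difference was 0.36 and its ratio, 1.43, was the smallest of the 5. HCRTR1, which prefers orexin-A, was at 1.18 FPKM (0 to 3.11) in high pigs and 0.741 FPKM (0 to 2.66) in low pigs, a log2 difference of 0.32. Both of its lower bounds were 0, so these values do not separate HCRTR1 from absence in either group.

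In both groups PMCH had the highest level of the 5, MCH-R1 the next and HCRTR1 the lowest. HCRT was above HCRTR2 in high pigs (a ratio of 1.49) and below it in low pigs (0.917), with overlapping intervals each time. HCRTR2 was 2.36 times HCRTR1 in high pigs and 2.62 times in low pigs, and MCH-R1 was 1.95 times HCRTR2 in high pigs and 1.71 times in low pigs. None of the neighbours below PMCH in this order had intervals apart in either group.

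**Figure D1:**
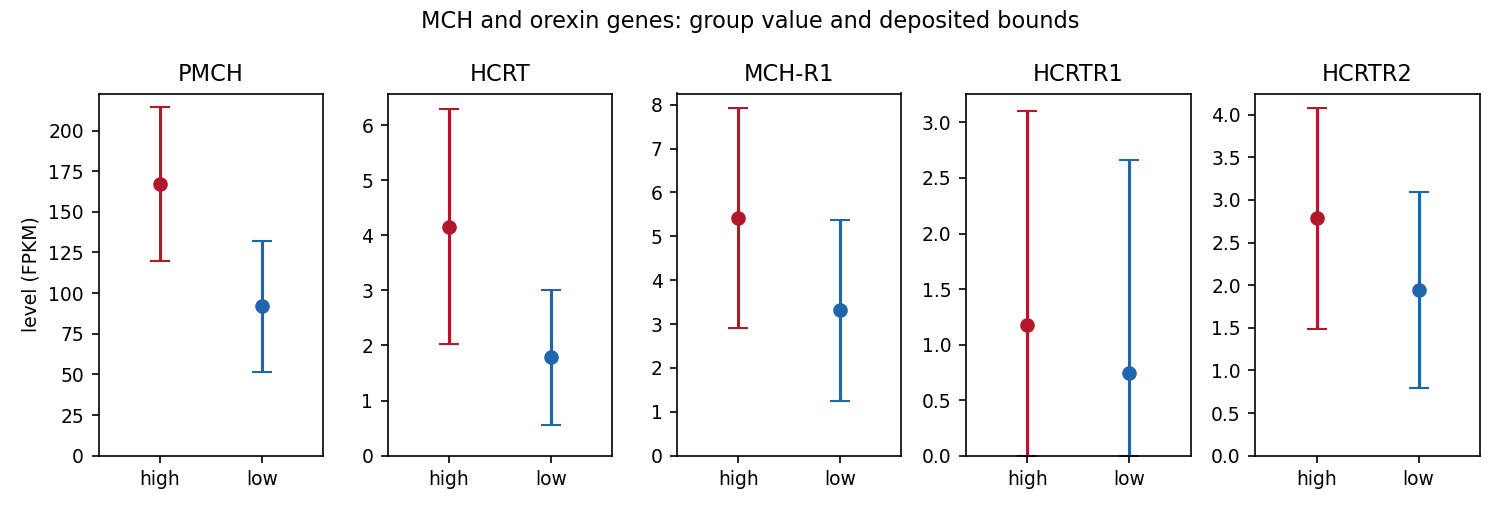
Level in FPKM (vertical axis, from 0, a separate scale for each gene) of the 5 genes in high and low pigs. Points are the authors' group values and bars the deposited bounds. High pigs have the higher point for every gene, the bars overlap for every gene, and for PMCH the overlap is 12.5 FPKM.

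These values were read against the whole table. Rows with an estimate in both groups and a mean of at least 1 FPKM numbered 15281 and are called retained rows here; no statistical test was possible on them. PMCH, HCRT, MCH-R1 and HCRTR2 were among them and HCRTR1, at a mean of 0.959 FPKM, was not. Of retained rows 32.3% had the higher value in high pigs, against 4 of the 4 retained members; that share was 49.0% once the groups were scaled by the median of ratios and 49.3% once they were quantile-normalized, and the 4 members kept their direction. The median log2 difference was 0.71 over these 4 and 0.57 over all 5, against -0.10 over all retained rows.

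A difference of 1.5-fold on the log2(FPKM + 1) scale, 0.58, was used as a size limit. PMCH and HCRT were past it, 2 of the 4 retained members, and 1.85% of retained rows were past it with the higher value in high pigs. In the other direction it was 0 of 4 members and 4.49% of retained rows. MCH-R1, at 0.57, lay just short of the limit, and it was past it after either rescaling of the groups (0.66 and 0.64) and with a pseudocount of 0.5 (0.63) or 0.1 (0.69). No member was past 2-fold on the log2(FPKM + 1) scale, against 0.936% of retained rows higher and 1.62% lower in high pigs. That result depended on the setting. HCRT was past 2-fold with a pseudocount of 0.5 (1.03) or 0.1 (1.18), and PMCH was past it after quantile normalization (1.11). Shares of retained rows past 2-fold were not computed under those settings. Intervals were apart for 0 members and for 0.0262% of retained rows with the higher value in high pigs, 4 rows in all, and 0.432% with the lower value there.

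By the plain FPKM ratio, 1.18% of retained rows reached that of PMCH, 0.524% that of HCRT, 1.79% that of MCH-R1 and 3.64% that of HCRTR2. The share for HCRTR1, itself not retained, was 2.08%. After each group was scaled by the median of ratios, PMCH and HCRT both differed by 0.97, and the median over the retained rows was then -0.0054.

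At the level of PMCH few rows had the higher value in high pigs in the values as deposited. Shares at this level were not computed after rescaling, which raised the share over all retained rows. Of 1183 retained rows at 50 FPKM or more in each group, a limit chosen after the data were seen, 14.1% had the higher value in high pigs and 1.27%, 15 rows, were past 1.5-fold that way. For 13 of these 15 the lower bound was 0 in both groups. The other 2 were PMCH and CARTPT, the precursor of the CART peptides. Of the abundant rows with both lower bounds above 0, a filter also chosen after the data were seen, PMCH and CARTPT made up 0.183%. Because PMCH is itself part of this share, it does not measure how unusual PMCH is. Over rows of any level with both lower bounds above 0, 0.728% were past it with the higher value in high pigs.

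**Figure D2:**
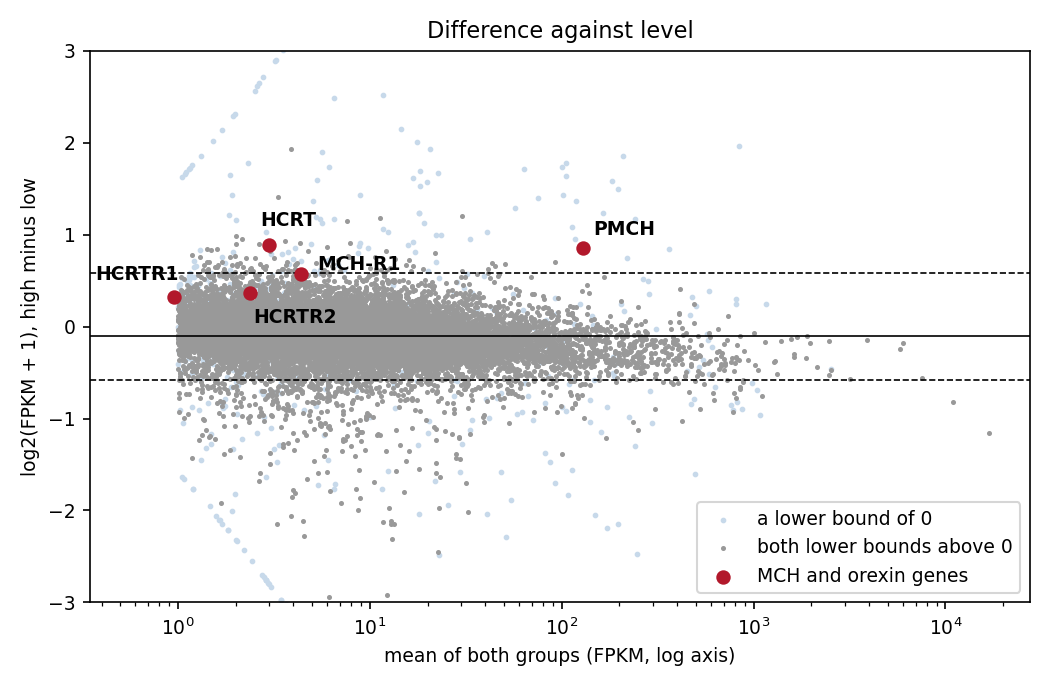
Log2(FPKM + 1) of high pigs minus low pigs (vertical axis) against the mean of both groups in FPKM (log axis). Grey points are retained rows with both lower bounds above 0, pale blue points those with a lower bound of 0, and red points the 5 genes. The solid line is the median of retained rows, -0.10, the dashed lines mark 1.5-fold, and 119 retained rows lie outside the 3 log2 units drawn. PMCH lies above most grey rows of its level, whereas HCRT and the receptors lie at the upper side of the dense band of low rows.

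The place of each gene bears on how its reads could be assigned. Coordinates are those of the file, on build Sscrofa10.2, counted from 1. PMCH (ENSSSCG00000000858) lies on chromosome 5 from 85944967 to 85946325, and the next row, C12ORF48, begins 170 bases further on. In the RefSeq annotation of a later build, Sscrofa11.1, the same neighbour, there named PARPBP, spans PMCH. C12ORF48 was at 0.460 FPKM (0.144 to 0.776) in high pigs and 0.354 FPKM (0.0773 to 0.631) in low pigs, far under PMCH in both. The sources used here do not say whether reads were counted by strand.

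HCRT (ENSSSCG00000017410) lies on chromosome 12 from 20878670 to 20880565, between GHDC and KCNH4 and without a row that overlaps it. GHDC, 2927 bases before it, was at 3.49 FPKM in high pigs and 3.97 FPKM in low pigs, a log2 difference of -0.15. KCNH4, a potassium channel gene 3078 bases after it, was at 2.09 FPKM in high pigs and 1.35 FPKM in low pigs, a difference of 0.39, and its intervals overlapped. MCH-R1 (ENSSSCG00000000074; chromosome 5, 4916602 to 4918861) and HCRTR2 (ENSSSCG00000001481; chromosome 7, 30298326 to 30397733) also overlapped no other row.

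HCRTR1 (ENSSSCG00000003601) differs from the other 4 in this respect. Its locus, chromosome 6 from 81800443 to 81875581, is printed identically for 3 rows, HCRTR1, TINAGL1 and PEF1, so the span is that of the joined genes and not of HCRTR1 alone. PEF1, a calcium-binding protein, was at 38.8 FPKM (27.0 to 50.5) in high pigs and 44.3 FPKM (28.5 to 60.0) in low pigs. TINAGL1 was at 1.497 FPKM (0 to 3.61) in high pigs and 2.03 FPKM (0 to 5.13) in low pigs. Both have the lower value in high pigs, and both have a higher value than HCRTR1 in each group, though the intervals of TINAGL1 and HCRTR1 overlap. Whether reads of HCRTR1 were mixed with those of the rows at the same locus was not tested, and the value of HCRTR1 is uncertain.

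The width of the HCRTR1 intervals was large as well. The half-width came to 132% of the value in high pigs and 179.6% in low pigs, against 28.5% in high pigs and 43.9% in low pigs for PMCH, and 46.4% to 68.8% for HCRT, MCH-R1 and HCRTR2 over both groups. Among rows at a mean of 0.5 to 2 FPKM, the median half-width of the 470 that share a locus with another row was 96.0% in high pigs and 107% in low pigs. For the 2615 rows with a locus of their own it was 60.2% in high pigs and 65.7% in low pigs. HCRTR1 was wider than 98.0% of these 2615 rows in high pigs and 98.9% in low pigs, and wider than 67.4% of the rows with a shared locus in high pigs and 72.6% in low pigs. Both lower bounds were 0 for 49.4% of rows with a shared locus and 6.73% of the others.

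**Figure D3:**
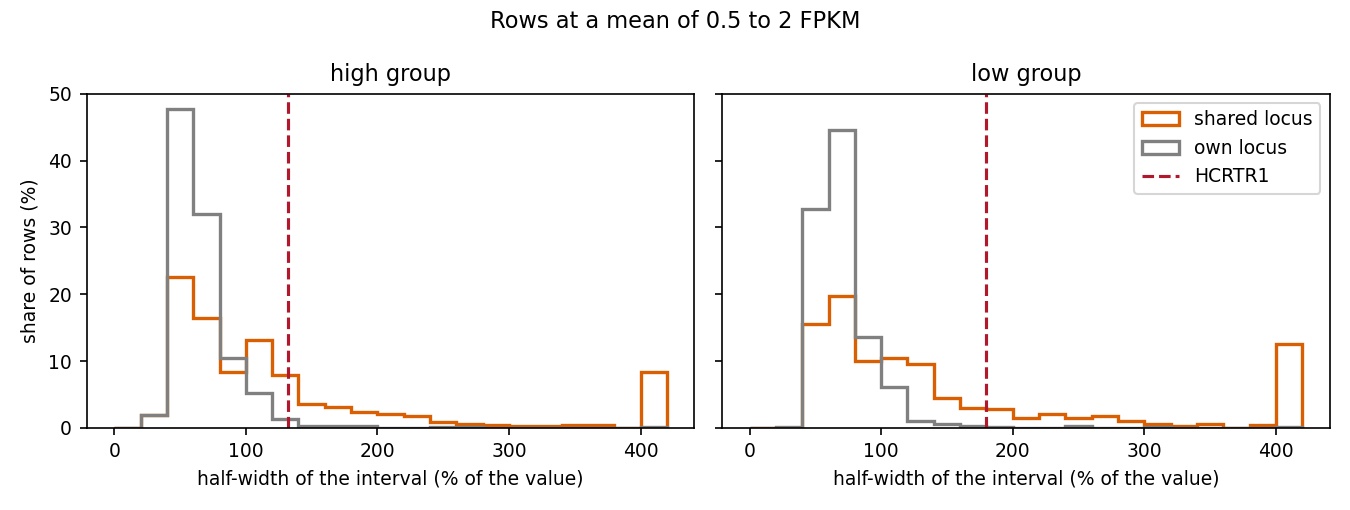
Share of rows in percent (vertical axis) by the half-width of the deposited interval in percent of the value (horizontal axis, bins of equal width, the last holding all from 400 upwards), for rows at a mean of 0.5 to 2 FPKM, in high pigs (left) and low pigs (right). Orange lines are the 470 rows that share a locus, grey lines the 2615 rows that do not, and the dashed line is HCRTR1, at 132% in high pigs, beyond most of the grey rows.

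Beside 10 other peptide precursors of lateral hypothalamic neurons and their neighbours, PMCH ranked 1st of 12 in high pigs and 3rd in low pigs. In high pigs its interval overlapped those of SST (somatostatin, 156 FPKM), PENK (proenkephalin, 136 FPKM) and CARTPT (115 FPKM) and was apart from that of PDYN (prodynorphin, 88.1 FPKM) and all lower ones. In low pigs PENK (164 FPKM) and SST (114 FPKM) stood above PMCH, and the interval of PMCH overlapped those of PENK, SST, PDYN (79.4 FPKM), CARTPT (70.2 FPKM), TAC3 (52.0 FPKM) and NTS (40.0 FPKM). HCRT ranked 11th of 12 in high pigs and 12th in low pigs, and its intervals overlapped those of CRH (2.81 FPKM in high pigs, 3.03 FPKM in low pigs) and of TRH, the thyrotropin-releasing hormone precursor.

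**Figure D4:**
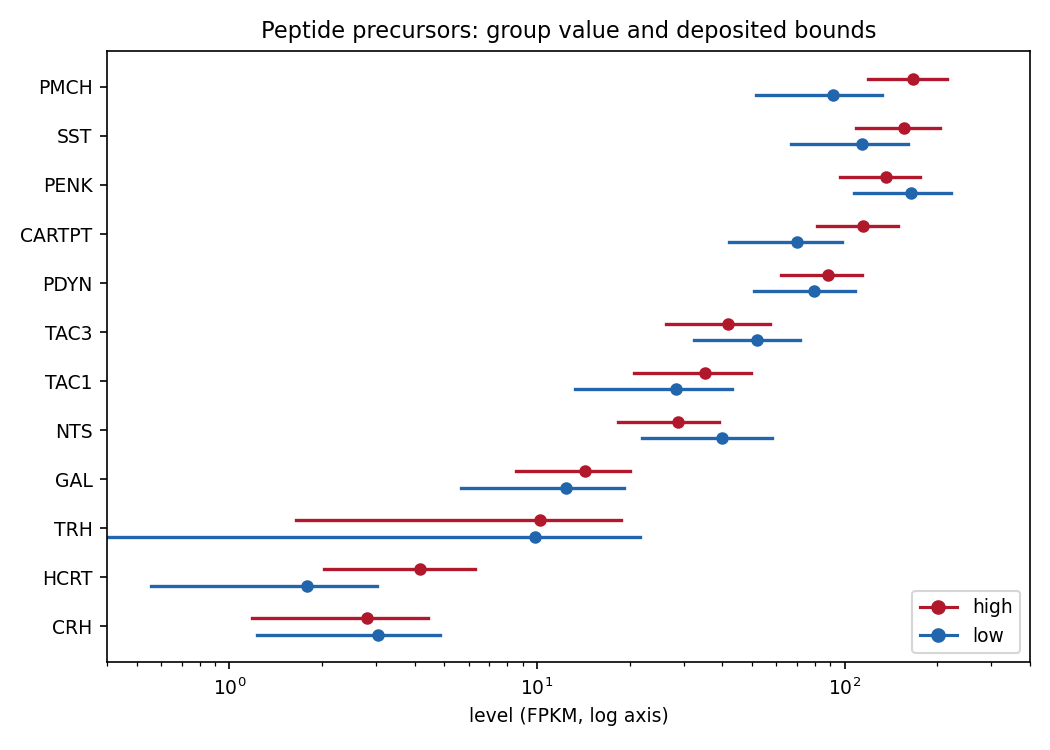
Level in FPKM (log axis) of 12 peptide precursors, ordered by high pigs. Points are the authors' group values, lines the deposited bounds, red for high pigs and blue below it for low pigs; the low bound of TRH in low pigs is 0 and its line runs to the edge. PMCH and HCRT are separated by a factor of 40.2 in high pigs and 51.5 in low pigs.

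Of these 10 other precursors, 6 had the higher value in high pigs and 4 in low pigs, with a median log2 difference of 0.10. CARTPT, at 115 FPKM in high pigs and 70.2 FPKM in low pigs, was the 1 gene past 1.5-fold (0.71), and its intervals overlapped. The lowest difference was that of neurotensin, NTS, at 28.7 FPKM in high pigs and 40.0 FPKM in low pigs (-0.47).

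CARTPT is also made by many MCH neurons in rodents. In a list of 8 genes that rodent MCH neurons express, 7 were retained, 5 had the higher value in high pigs, 1 was past 1.5-fold there (CARTPT) and 0 were past it in the other direction. The list median was 0.32. GAD2, a GABA-synthesising enzyme, was at 33.2 FPKM in high pigs and 23.4 FPKM in low pigs (0.49), and the cannabinoid receptor CNR1 was at 9.62 FPKM in high pigs and 7.03 FPKM in low pigs (0.40). The lowest was NUCB2, the precursor of nesfatin, at 15.2 FPKM in high pigs and 16.4 FPKM in low pigs (-0.10). These genes are expressed by many other neurons as well.

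Of 8 genes that rodent orexin neurons express, 5 were retained and 0 were past 1.5-fold in either direction, with a median of 0.15. NPTX2, a secreted synaptic pentraxin, came closest, at 49.7 FPKM (33.5 to 66.0) in high pigs and 32.9 FPKM (19.1 to 46.7) in low pigs, a difference of 0.58 that was just short before rounding. PDYN, which orexin neurons release along with orexin, was at 88.1 FPKM in high pigs and 79.4 FPKM in low pigs (0.15). The glutamate transporter gene SLC17A6 had the lowest difference, -0.09. LHX9, a transcription factor of developing orexin neurons, was at 0.120 FPKM in high pigs and 0.231 FPKM in low pigs, with lower bounds of 0, and was not retained.

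The enzymes that turn the precursors into peptides differed little between the groups. Of 14 genes of prohormone processing and dense core vesicles, all retained, 8 had the higher value in high pigs, 6 in low pigs and 0 were past 1.5-fold. The median was 0.02 and the differences ran from -0.22 for CHGB to 0.39 for PCSK1N, an inhibitor of a prohormone convertase. The convertases PCSK1 and PCSK2 were at 34.2 and 38.5 FPKM in high pigs and at 33.6 and 37.7 FPKM in low pigs. PAM, which amidates the ends of both orexins, was at 143 FPKM in high pigs and 145 FPKM in low pigs. QPCT, which forms the pyroglutamate that begins orexin-A, was at 15.3 FPKM in high pigs and 15.1 FPKM in low pigs.

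MCHR2, a second MCH receptor that rodents lack, was at 0.0635 FPKM (0 to 0.163) in high pigs and 0.0483 FPKM (0 to 0.131) in low pigs, values whose bounds include 0. In the list of 10 related peptide receptors 8 rows were matched and 3 were retained, all 3 with the higher value in high pigs and 0 past 1.5-fold. The highest difference was that of the somatostatin receptor SSTR2 (4.61 FPKM in high pigs, 3.21 FPKM in low pigs, 0.42). The lowest was that of QRFPR, a receptor related to the orexin receptors (1.61 FPKM in high pigs, 1.28 FPKM in low pigs, 0.20).

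Signalling genes below the receptors were near the median of the table. Orexin receptors act chiefly through Gq and phospholipase C, and MCH-R1 through Gi, Go and Gq. Of 20 such genes 18 were retained, 6 with the higher value in high pigs, 12 with the lower value there and 0 past 1.5-fold, and their median was -0.08, turning to 0.02 and 0.04 after the 2 rescalings. The cation channel gene TRPC4 had the highest difference (3.78 FPKM in high pigs, 2.32 FPKM in low pigs, 0.52) and the inhibitory G protein subunit GNAI1 the lowest (37.2 FPKM in high pigs, 45.6 FPKM in low pigs, -0.29).

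Orexin fibres excite the histamine neurons of the posterior hypothalamus. HDC, the enzyme that makes histamine, was at 37.0 FPKM (24.6 to 49.4) in high pigs and 29.0 FPKM (18.4 to 39.6) in low pigs, a difference of 0.34. Of 11 genes of monoamine and acetylcholine neurons 10 were matched and 3 retained, 2 with the higher value in high pigs and 0 past 1.5-fold. The vesicular monoamine transporter SLC18A2 differed by 0.30 and DDC, the lowest, by -0.06.

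**Figure D5:**
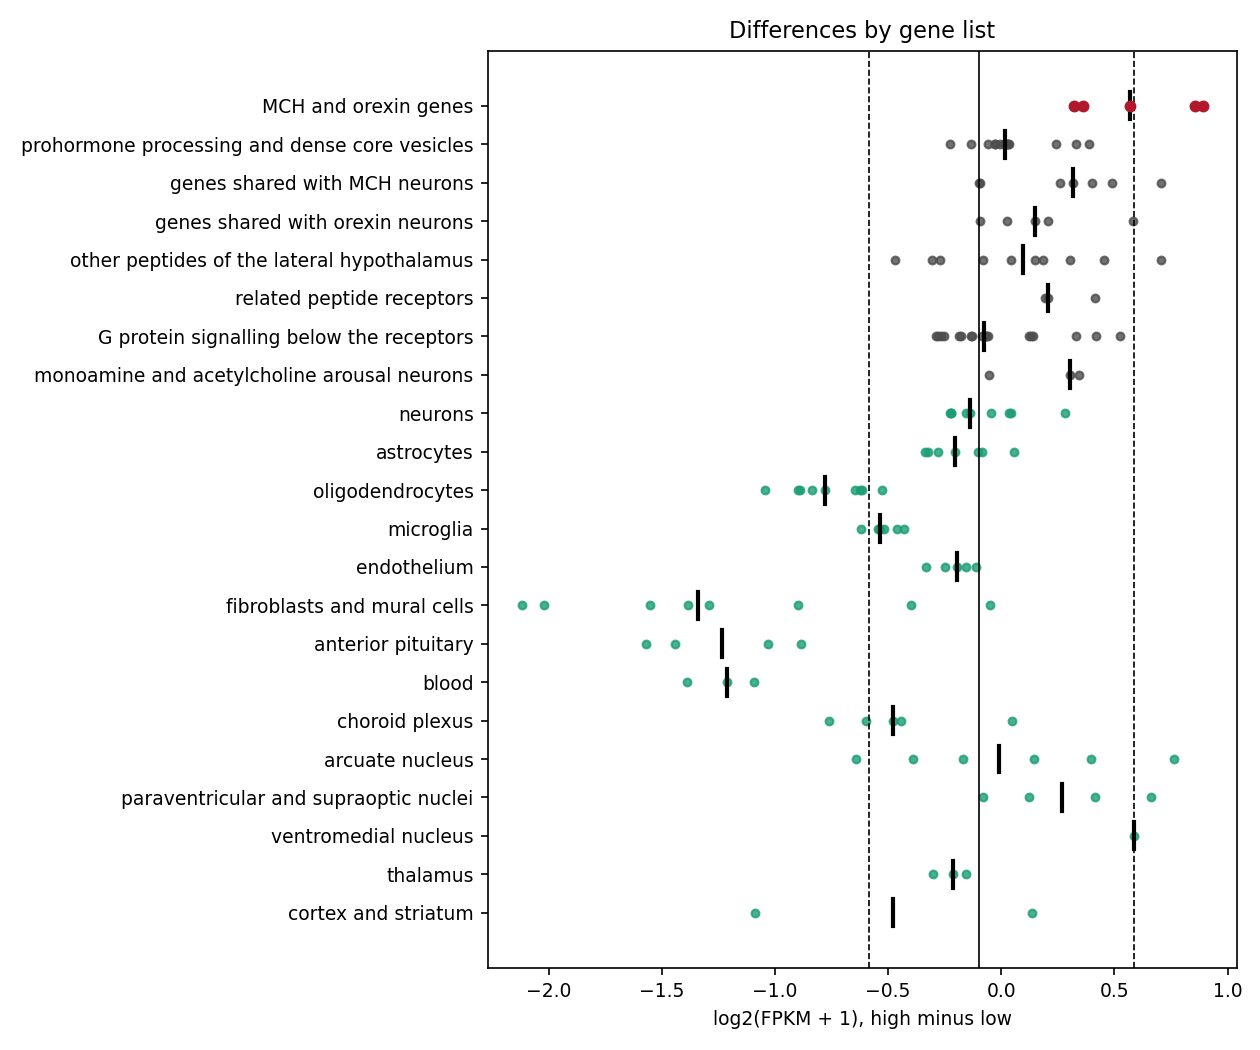
Log2(FPKM + 1) of high pigs minus low pigs (horizontal axis) for the 5 genes (red), for retained genes of 7 lists of the same system (grey) and of 14 lists of cell types and regions (green). Black bars are medians, the solid line is the median of all retained rows (-0.10) and dashed lines mark 1.5-fold. The red points lie between 0.32 and 0.89, right of the solid line, and oligodendrocyte, fibroblast, pituitary and blood genes lie left of it.

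Markers of several other cell types had the lower value in high pigs, opposite to the 5 genes. Summed over 9 oligodendrocyte genes with an estimate the level was 2905 FPKM in high pigs and 4529 FPKM in low pigs, and 8 of the 9 were past 1.5-fold with the lower value in high pigs. Of all retained rows, 4.49% were past 1.5-fold in that direction. For 8 fibroblast and mural cell genes the sum was 85.8 FPKM in high pigs and 215 FPKM in low pigs, with 6 past it, and for 7 microglial genes it was 345 FPKM in high pigs and 492 FPKM in low pigs, with 1 past it. The anterior pituitary list summed to 302 FPKM in high pigs and 639 FPKM in low pigs (4 of 4 retained genes past it), and the blood list to 159.7 FPKM in high pigs and 389.9 FPKM in low pigs (3 of 3). Intervals were apart, with the lower value in high pigs, for 5 fibroblast and mural cell genes and 2 blood genes, against 0.432% of retained rows. They were apart for 0 retained genes of the oligodendrocyte, microglial and pituitary lists. Astrocyte genes summed to 3109 FPKM in high pigs and 3736 FPKM in low pigs, endothelial genes to 36.9 FPKM in high pigs and 43.2 FPKM in low pigs, and choroid plexus genes to 318 FPKM in high pigs and 475 FPKM in low pigs. Neuronal genes were closer, at 2029 FPKM in high pigs and 2088 FPKM in low pigs, with 0 of 9 past 1.5-fold and a median of -0.14, which was -0.03 after median-of-ratios scaling and 0.07 after quantile normalization. No matched gene with an estimate was at 0 in both groups in these lists; GFAP of the astrocyte list had no estimate. The part of these differences in the values of PMCH, HCRT and their receptors was not tested. In bulk tissue more cells of a type and more RNA per cell cannot be told apart.

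Defining genes of the hypothalamus were present: AVP, the vasopressin precursor, was at 472 FPKM in high pigs and 354 FPKM in low pigs. Pituitary genes were present too, PRL at 279 FPKM in high pigs and 570 FPKM in low pigs.

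The rows closest to each member were found by distance in log2(FPKM + 1) over the 2 group values, a weak measure of likeness. For PMCH they were SST (distance 0.32), TTC3 (0.33) and BHLHB9 (0.41), each with a smaller difference between the groups than PMCH (0.36 to 0.45). For HCRT they were C1orf222 (0.071), DLEC1 (0.16) and L3MBTL1 (0.18). For MCH-R1 they were FGG, FNBP4 and GDA, for HCRTR1 TNFRSF8, WDR65 and TRPM2, and for HCRTR2 CABYR, SYT16 and WDR78, all within 0.060.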

How the data were processed

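Per the file headers, the authors deposited FPKM, with a group value, its bounds and a status for each gene. Cufflinks 2.0.2 and TopHat2 2.0.5 on Bowtie2, build Sscrofa10.2, and the read tools Trim Galore, FastQC and CASAVA are listed in the submitters' processing notes. How each was run, the confidence level of the bounds and whether strand was used were not given in the sources used here. Depth is unknown.

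Members were matched by gene name, and list genes by gene name or a reference table. The row with the higher mean was taken for genes with 2 rows. These were PLCB1 and EBF2 of the pathway lists, and MOG, CSF1R, C1QB, COL1A1, COL1A2, FOLR1 and GHRH of the cell type and region lists. The 58 rows without an estimate in a group were left out. Starts were counted from 0 in the file (8 rows start at 0), so 1 was added. Differences are log2(FPKM + 1), high minus low, which understates the change of low genes. With 1 value per group no test was made. Members, lists, the 1.5-fold limit and the rule for naming genes (all members; list genes past the limit and the extremes of each pathway list; overlapping and adjacent rows; the 3 nearest rows) were chosen with earlier results of these data known. PAM, QPCT, PCSK1, PCSK2, GAD2, CNR1, PDYN, LHX9, MCHR2, HDC and SLC18A2 were named in addition for their role or value. Python 3.11.15, numpy 2.4.6 and pandas 2.3.3 were used. The calls were run on simulated rows with larger changes than any member and higher levels than most members. That run does not show how the calls perform at the members' own levels and sizes.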

Additional observations from a re-analysis of the deposited data

How the results depend on the processing

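All 5 genes kept the higher value in high pigs after median-of-ratios scaling and after quantile normalization. The other settings, pseudocounts, filters and size limits, cannot change the direction of a gene. The intervals of the 5 genes overlapped as deposited and after median-of-ratios scaling. The size calls moved. With a pseudocount of 0.1, MCH-R1 (0.69) and HCRTR1 (0.60) passed 1.5-fold, making 4 of all 5 members and 3 of the 4 retained ones, while 3.004% of retained rows, which do not include HCRTR1, passed it with the higher value in high pigs. MCH-R1 also passed with a pseudocount of 0.5 (0.63), after median-of-ratios scaling (0.66) and after quantile normalization (0.64). The shares of retained rows that passed with the higher value in high pigs were then 2.35%, 2.55% and 2.52%. At 2-fold on the unscaled log2(FPKM + 1) values PMCH (0.86) and HCRT (0.89) no longer passed, leaving 0 members. There 0.936% of retained rows were past 2-fold higher in high pigs and 1.62% lower. HCRT did pass 2-fold with a pseudocount of 0.5 (1.03) or 0.1 (1.18), and PMCH did after quantile normalization (1.11). The share at 1.5-fold, 1.85%, became 0.728% among rows with both lower bounds above 0, a setting chosen after the data were seen. Among rows at 50 FPKM or more in each group, chosen likewise, it was 1.27%, and the share with the lower value in high pigs was 6.85% against 4.49%. Either scaling moved the share of retained rows higher in high pigs from 32.3% to 49.0% or 49.3%.

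The median of the G protein signalling list turned to 0.023 after median-of-ratios scaling and 0.038 after quantile normalization, that of neurons to 0.068 and of astrocytes to 0.0033 after quantile normalization, and that of the arcuate list (-0.01) to 0.083, 0.059 and, by the mean, 0.018. The prohormone list moved to 0.19 after quantile normalization. Without a filter the arousal list moved to 0.018 and the ventromedial list to 0.18. The cause was not tested. No paired analysis was possible because animals of a group have no separate values, and none could be left out in turn. The effect of depth, which is unknown, was not measured.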

Other observations

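Genes of other hypothalamic nuclei differed among themselves. The list median was 0.27 for the paraventricular and supraoptic nuclei and 0.59 for the ventromedial nucleus, which rests on 1 retained gene. Without a filter these medians were 0.12 and 0.18. The median of the arcuate nucleus was -0.01, turning to 0.083 after median-of-ratios scaling, 0.059 after quantile normalization and 0.018 by the mean. In the arcuate list KISS1, the kisspeptin precursor, was at 2.74 FPKM in high pigs and 1.21 FPKM in low pigs (log2 difference 0.76), whereas NPY was at 7.25 FPKM in high pigs and 11.9 FPKM in low pigs (-0.64). For KISS1 and for NPY the intervals of the groups overlapped. FEZF1, a transcription factor of the ventromedial nucleus, was at 6.86 FPKM in high pigs and 4.24 FPKM in low pigs (0.59), also with overlapping intervals. OXT, the oxytocin precursor, was at 55.5 FPKM in high pigs and 34.7 FPKM in low pigs (0.66), with overlapping intervals. In its list, that of the paraventricular and supraoptic nuclei, 3 of 4 retained genes had the higher value in high pigs and 1 the lower. These genes were named after their values were seen. NPBWR1, a receptor for neuropeptides B and W below the filter, was at 1.04 FPKM (0.300 to 1.77) in high pigs and 0.366 FPKM (0.0132 to 0.719) in low pigs, with overlapping intervals.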
